A study of Mus musculus with 37 samples.

Results

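The 33 genes described here make cholesterol and fatty acids in the cell or control and carry these lipids. They fall into 7 genes of the mevalonate pathway, 11 genes of the later sterol steps, 5 regulators and carriers of sterols, and 10 genes of fatty acid synthesis, desaturation and use. The members were selected on their role in the pathway with earlier fold changes of these same data known. Which comparison led to the choice is not recorded, so their values under every medium are given as a description, and no p-value of a member is printed. Calls of members rest on p-values of these same data and are no independent test. They were all found among the 30892 genes listed for cardiac fibroblasts (CFs), the 20158 genes listed for neonatal rat ventricular myocytes (NRVMs) and the 31053 genes of the single-cell libraries. The rat table names Scd1 as Scd.

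The study asked how ENPP1, an ectonucleotidase that splits extracellular ATP into AMP and pyrophosphate, acts between myocytes and nonmyocytes of the injured heart. Mouse CFs immortalized with the SV40 antigen were kept in serum-free medium with insulin, transferrin and selenium. They then received myocyte-conditioned medium (MCndM), which is medium taken from NRVMs to which vehicle, ATP, ENPP1, ENPP1 with ATP (ENPP1+ATP) or AMP had been added. Each of the 5 media was given for 24 h or 48 h in 2 libraries, which makes 20 CF libraries. The labels do not say whether these came from 1 immortalized cell preparation. NRVMs, which are ventricular myocytes of newborn Sprague-Dawley rats, were sequenced at 24 h under the same 5 names with 3 libraries each, and their labels also speak of conditioned medium. The organism label of these 15 libraries reads mouse, while the gene symbols are those of the rat. The last 2 libraries hold single nonmyocytes of C57BL/6 mouse hearts 7 days after myocardial infarction. One came from ENPP1CKO animals, in which Col1a2CreERT deletes the ENPP1 fl/fl alleles after tamoxifen was given from before injury until the harvest, and one from control animals that the labels call wild type. How many hearts went into each is not given in the sources used here, and the Col1a2 driver acts in cells that make type I collagen.

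Cells build cholesterol from acetyl-CoA by way of mevalonate, farnesyl diphosphate, squalene and lanosterol, and they build fatty acids from the same acetyl-CoA. Both routes are controlled by the transcription factors SREBP1 and SREBP2, encoded by Srebf1 and Srebf2, which are held in the endoplasmic reticulum by INSIG1 when sterols are plentiful. When sterols run low the factors are cleaved, enter the nucleus and raise transcription of most genes of both routes. In fibroblasts and myocytes these lipids go into membranes, and newly made unsaturated fatty acids set membrane fluidity.

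Promoters are shown because the members moved together, from the RefSeq start sites of build GRCm38.p6, each with 250 bases before and 50 bases from the start site. A promoter was listed for 26 of the 33 members, with 31 promoters in all. No entry was matched for Fdps, Fdft1, Sqle, Stard4, Scd1, Scd2 and Fads1. Capitals mark the letters CCAAT or their reverse complement ATTGG, a box bound by NF-Y, and in Hmgcs1 also TCACNCCAC, a form of the sterol regulatory element. Positions are counted from the start site, and negative ones lie before it. Hmgcs1, the enzyme that makes HMG-CoA, has its promoter at chr13:119690101-119690400 on the plus strand. Mvk, mevalonate kinase, lies at chr5:114444019-114444318 on the plus strand and had the box 5 times. Msmo1, the methylsterol oxidase, lies at chr8:64733529-64733828 on the minus strand. Tm7sf2, a sterol reductase, lies at chr19:6067801-6068100 on the minus strand. Acss2, which makes acetyl-CoA from acetate, lies at chr2:155517793-155518092 on the plus strand. Lpin1, a phosphatidate phosphatase, lies at chr12:16610917-16611216 on the minus strand and is shown as 1 of 5 members whose listed promoter held neither set of letters. The other 4 are Acat2, Acaca, Elovl6 and Fads2, which were lower in CFs under ENPP1+ATP and AMP medium at both times.
Hmgcs1: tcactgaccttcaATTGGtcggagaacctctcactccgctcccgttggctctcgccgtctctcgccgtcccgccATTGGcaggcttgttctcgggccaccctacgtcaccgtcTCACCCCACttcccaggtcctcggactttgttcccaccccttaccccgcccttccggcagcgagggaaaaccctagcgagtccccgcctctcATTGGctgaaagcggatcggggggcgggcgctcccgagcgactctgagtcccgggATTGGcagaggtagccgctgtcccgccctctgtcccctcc
Mvk: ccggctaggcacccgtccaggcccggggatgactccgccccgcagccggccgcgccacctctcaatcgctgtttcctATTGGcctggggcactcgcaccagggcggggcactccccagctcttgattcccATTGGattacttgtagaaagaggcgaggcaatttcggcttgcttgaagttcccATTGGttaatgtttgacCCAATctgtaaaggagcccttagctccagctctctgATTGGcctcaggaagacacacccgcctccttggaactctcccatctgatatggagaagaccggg
Msmo1: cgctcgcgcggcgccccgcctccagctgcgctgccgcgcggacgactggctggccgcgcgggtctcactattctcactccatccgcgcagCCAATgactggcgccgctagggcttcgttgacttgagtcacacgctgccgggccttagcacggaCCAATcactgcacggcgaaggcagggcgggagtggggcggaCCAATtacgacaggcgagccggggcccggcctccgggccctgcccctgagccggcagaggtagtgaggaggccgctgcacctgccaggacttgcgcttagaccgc
Tm7sf2: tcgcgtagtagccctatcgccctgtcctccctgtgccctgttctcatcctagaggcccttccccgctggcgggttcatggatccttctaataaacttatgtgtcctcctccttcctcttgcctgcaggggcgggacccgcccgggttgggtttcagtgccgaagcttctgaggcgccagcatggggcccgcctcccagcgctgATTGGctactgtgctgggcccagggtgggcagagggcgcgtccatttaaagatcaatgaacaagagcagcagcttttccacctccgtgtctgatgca
Acss2: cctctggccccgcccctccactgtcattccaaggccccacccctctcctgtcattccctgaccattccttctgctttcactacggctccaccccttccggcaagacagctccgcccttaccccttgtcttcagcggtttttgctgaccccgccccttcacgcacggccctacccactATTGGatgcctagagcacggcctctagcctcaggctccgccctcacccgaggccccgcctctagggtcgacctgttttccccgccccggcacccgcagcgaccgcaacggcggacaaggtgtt
Lpin1: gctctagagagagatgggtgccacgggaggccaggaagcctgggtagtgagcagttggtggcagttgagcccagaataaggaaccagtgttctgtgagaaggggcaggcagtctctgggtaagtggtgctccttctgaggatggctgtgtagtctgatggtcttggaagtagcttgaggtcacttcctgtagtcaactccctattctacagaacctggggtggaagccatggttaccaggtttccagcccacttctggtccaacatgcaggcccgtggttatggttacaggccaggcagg

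The CCAAT letters, searched on both strands, were in 22 of the 31 member promoters (71.0%) and in 37.4% of all 32851 listed promoters of this length. The GC box letters GGGCGG, also on both strands, were in 23 of the 31 (74.2%) and in 35.7% of all. The E box CACGTG was in 4 of the 31 (12.9%), those of Dhcr7, Hsd17b7, Insig1 and Sc5d, and in 7.15% of all. TCACNCCAC with its reverse complement GTGGNGTGA was in 1 member promoter, that of Hmgcs1 at position -137, and in 1.24% of all. None of these motifs contains another. They are descriptions of the sequence, and binding was not measured.

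The CF libraries held 32184799 to 115824659 reads and the NRVM libraries 13481389 to 16977980. The 24 h vehicle replicate 1 library was the deepest. Levels are in CPM, the reads of a gene divided by the library's size after scaling by edgeR's TMM factors and brought to the usual common total, so that they compare between libraries but not, without gene length, between genes. All 33 members passed edgeR's filter on low counts in both cell types, where 17879 and 13461 genes were tested. A gene was called when its Benjamini-Hochberg adjusted p in edgeR's quasi-likelihood test was under 0.05 over all genes tested, and log2 fold changes carry their standard error (SE). Nothing in the labels says that the libraries of a group came from separate cultures, so the tests measure only the spread between these libraries. The labelled cell types were checked against 9 markers each. The summed fibroblast markers were 6731 to 7200 CPM in CFs in vehicle medium and the summed cardiomyocyte markers 18.3 to 23.7 CPM. Under vehicle the NRVM libraries held 41660 to 43852 CPM of cardiomyocyte markers and also 24753 to 26139 CPM of 8 measured fibroblast markers. Mitochondrial reads, 2.02 to 5.37% in CFs and 8.05 to 11.1% in NRVMs, moved with the medium and are given beside the results.

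Within vehicle CFs at 24 h the members ranged widely when levels were set per kilobase of exon. Scd2, the main stearoyl-CoA desaturase of these cells by this measure, stood highest at 305 CPM per kilobase. Acly, the enzyme that makes acetyl-CoA from citrate, stood at 211, Fads1 at 182, Fasn at 176 and Hmgcs1 at 169 CPM per kilobase. Tm7sf2 at 17.0, Fdps at 11.2 and Lpin1 at 6.05 CPM per kilobase were low. Some members share exon sequence with other genes, which can split or remove reads. Of the 50-base words of each gene, 39.1% in Acat2 also occur elsewhere, most in Acat3, as do 30.4% in Acaca, 26.2% in Fdps, 20.8% in Tmem97 and 17.7% in Idi1. Exons of Tm7sf2 are overlapped by Vps51 on the same strand over 12.1% of their length and those of Fdps by Gm43738 over 26.7%. Levels of these genes are therefore less certain.

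In CFs that had ENPP1+ATP MCndM or AMP MCndM for 24 h, nearly all members were lower than in vehicle medium. Under ENPP1+ATP medium 32 members were called lower and 0 higher, with a median log2 fold change of -0.80. Of all genes tested, 25.3% were called lower and 23.9% higher. Under AMP medium 32 members were called lower and 1 higher, with a median of -0.90, beside 27.5% lower and 25.3% higher of all genes. Both comparisons use the same 2 vehicle libraries, so they are not independent of each other. All libraries of the medium lay below both vehicle libraries for 32 members under either medium, as they did for 38.9% of all genes under ENPP1+ATP and 38.4% under AMP medium. In such bulk samples, fewer cells of a type and less RNA per cell cannot be told apart.

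**Figure D1:**
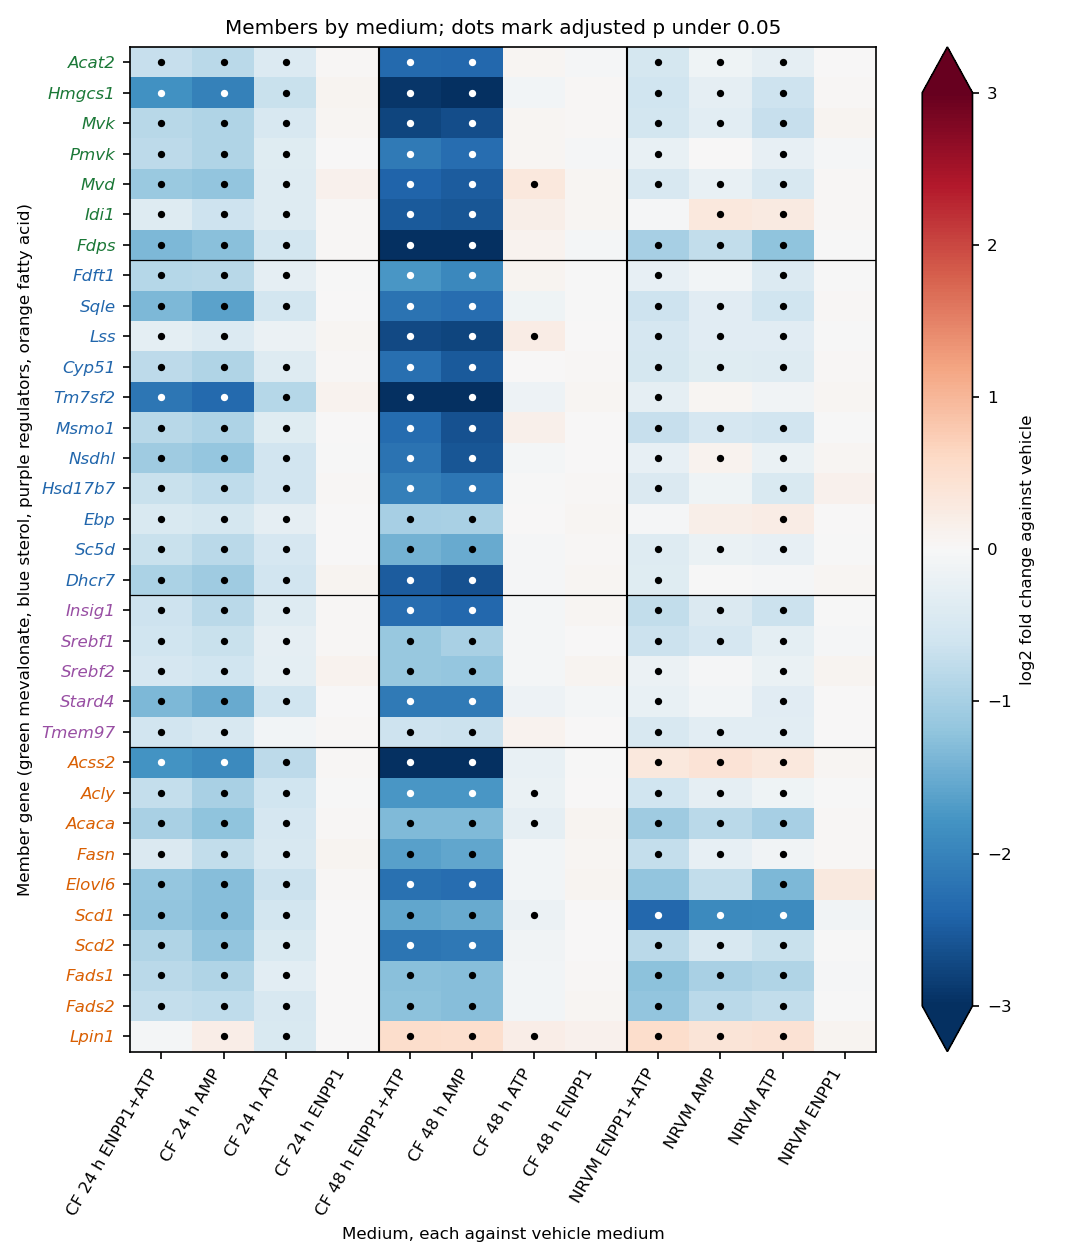
Heat map of the log2 fold change of each of the 33 members (rows, ordered by role) in each comparison (columns) of CFs and NRVMs, with blue for lower and red for higher than the reference medium. The colour scale ends at 3 on either side and larger changes take the end colour. The CF columns of ENPP1+ATP and AMP medium at 48 h are the darkest blue, with medians of -2.19 and -2.28, and Lpin1 stands out in red.

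The mevalonate genes were all called lower at 24 h under both media. Hmgcs1 had 726 and 826 CPM in vehicle medium, 217 and 226 CPM in ENPP1+ATP medium, and 190 and 189 CPM in AMP medium. Its log2 fold change was -1.81 ± 0.0619 (SE, n = 2 against 2) and -2.03 ± 0.0623. Every treated library lay below every vehicle library. Fdps, which makes farnesyl diphosphate, went from 46.4 and 47.5 CPM in vehicle to 18.7 and 18.1 CPM in ENPP1+ATP and 19.2 and 20.0 CPM in AMP medium. The corresponding log2 fold changes were -1.35 ± 0.0802 and -1.26 ± 0.0785. Smaller shifts were measured for Idi1, the isomerase of isopentenyl diphosphate, at -0.38 and -0.62. Acat2, Mvk, Pmvk and Mvd, which act before Idi1, lay between -0.70 and -1.18.

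The largest shift of all members was in a sterol gene. Tm7sf2 had 71.6 and 78.3 CPM in vehicle medium at 24 h, 15.7 and 17.7 CPM in ENPP1+ATP medium, and 15.2 and 14.7 CPM in AMP medium. Its log2 fold change was -2.16 ± 0.0872 and -2.33 ± 0.0865, and the groups did not overlap. Sqle, the squalene epoxidase, had 506 and 524 CPM in vehicle, 203 and 204 CPM in ENPP1+ATP and 174 and 164 CPM in AMP medium, with log2 fold changes of -1.34 ± 0.0576 and -1.61 ± 0.0579. The other sterol genes moved less at this time. Lss, the lanosterol synthase, was the least changed at -0.29 ± 0.0588 and -0.41 ± 0.0588. Ebp, a sterol isomerase, lay at -0.45 and -0.52. Fdft1, Cyp51, Msmo1, Nsdhl, Hsd17b7, Sc5d and Dhcr7 lay between -0.68 and -1.17.

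The regulators fell as well, by less than most enzymes. Srebf1 had 304 and 296 CPM in vehicle, 203 and 194 CPM in ENPP1+ATP, and 191 and 190 CPM in AMP medium at 24 h. Srebf2 had 713 and 727 CPM in vehicle, 498 and 520 CPM in ENPP1+ATP, and 460 and 486 CPM in AMP medium. Insig1 had 476 and 507 CPM in vehicle, 319 and 317 CPM in ENPP1+ATP, and 288 and 269 CPM in AMP medium. None of the treated libraries overlapped the vehicle libraries for these 3 genes. Under ENPP1+ATP medium their log2 fold changes were -0.60 ± 0.0431, -0.50 ± 0.0483 and -0.63 ± 0.0501. Under AMP medium they were -0.66 ± 0.0430, -0.61 ± 0.0483 and -0.82 ± 0.0502. Stard4, which carries cholesterol between membranes, shifted by -1.35 and -1.51. Tmem97, a sterol-responsive membrane protein, shifted by -0.57 and -0.48.

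Among the fatty acid genes, Acss2 moved the most at 24 h. It had 183 and 193 CPM in vehicle, 52.7 and 55.1 CPM in ENPP1+ATP and 47.4 and 51.5 CPM in AMP medium, or log2 fold changes of -1.80 ± 0.106 and -1.92 ± 0.106. The treated libraries were all below the vehicle libraries. The desaturase Scd1 shifted by -1.19 and -1.27 and the elongase Elovl6 by -1.16 and -1.27. Fasn, the fatty acid synthase, shifted by -0.43 and -0.73, the smallest changes of the lipogenic enzymes here. Acly, Acaca, Scd2, Fads1 and Fads2 lay between -0.70 and -1.22. Lpin1 was the exception. Its 59.8 and 57.1 CPM in vehicle compared with 57.3 and 55.7 CPM in ENPP1+ATP medium, a log2 fold change of -0.05 ± 0.0579 that was not called, and with 67.9 and 65.8 CPM in AMP medium, at 0.19 ± 0.0570. Without 24 h vehicle replicate 2, and also without the filter on low counts, the AMP call of Lpin1 was lost, which left 0 members called higher. The AMP libraries of 24 h differed more from each other than any other CF pair, at 36.5 times counting noise (chi-square per degree of freedom) against 6.34 to 12.7, with 3.87 and 2.46% mitochondrial reads and 39808854 and 74110869 reads. Without either of them 32 members were again called lower and 1 higher.

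**Figure D2:**
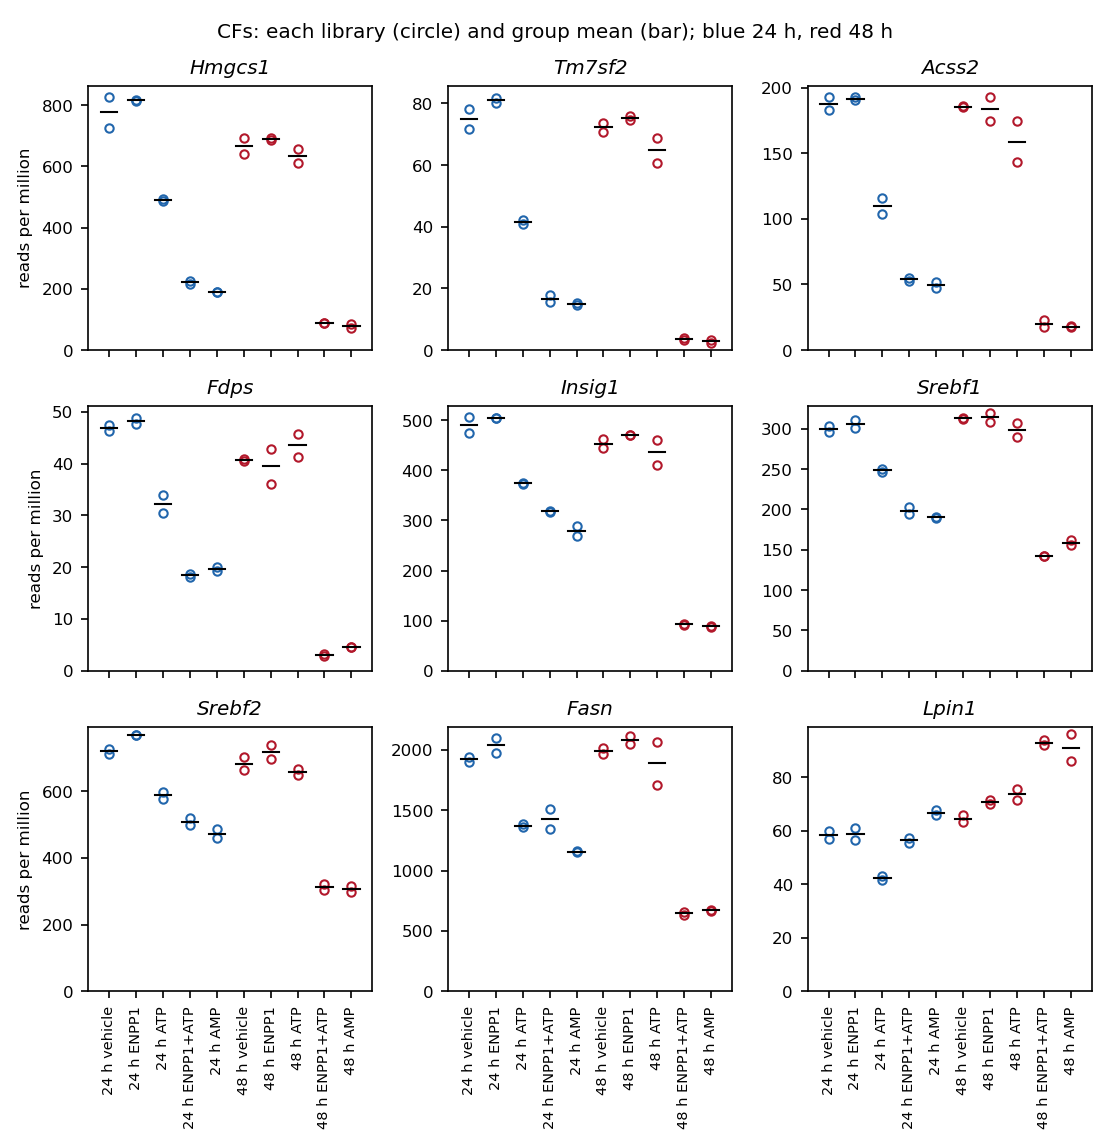
CPM of selected members in every CF library (circles) with the group mean (bar), by medium and time, on linear axes from 0. The vehicle and ENPP1 points lie together, and the ENPP1+ATP and AMP points lie below them for the enzymes and regulators. Tm7sf2 lies at 2.36 to 4.06 CPM at 48 h under ENPP1+ATP and AMP medium.

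At 48 h the same media left the enzymes far lower than the vehicle medium of that time. The paper reports that both media cause death of such CFs. The libraries may therefore come from cultures that were losing cells, and the part of this in the members' values was not tested. Under ENPP1+ATP medium 32 members were called lower and 1 higher, with a median log2 fold change of -2.19, beside 24.4% of all genes lower and 20.8% higher. Under AMP medium the counts were again 32 and 1, with a median of -2.28, beside 22.9% lower and 21.1% higher. The 1 member called higher was Lpin1 in both, and the 48 h comparisons share their 2 vehicle libraries.

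Tm7sf2 had 70.7 and 73.7 CPM in vehicle at 48 h, 3.17 and 4.06 CPM in ENPP1+ATP and 2.36 and 3.34 CPM in AMP medium. This was 20.1-fold and 25.2-fold lower, or -4.33 ± 0.108 and -4.66 ± 0.111 on the log2 scale, with 98 to 150 reads in each treated library. Fdps went from 40.5 and 40.9 CPM to 3.26 and 2.81 CPM in ENPP1+ATP and 4.59 and 4.54 CPM in AMP medium, at -3.74 ± 0.103 and -3.16 ± 0.0954. Acss2 went from 186 and 185 CPM to 23.3 and 17.2 CPM and to 17.6 and 18.3 CPM, at -3.19 ± 0.117 and -3.37 ± 0.118. Fdps stands where the sterol branch leaves the mevalonate pathway, and Acss2 supplies acetyl-CoA. Hmgcs1 went from 640 and 694 CPM to 87.6 and 89.2 CPM and to 84.7 and 73.0 CPM, at -2.92 ± 0.0654 and -3.08 ± 0.0659. In all 4 genes the treated libraries were several-fold below both vehicle libraries.

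By role, the 7 mevalonate genes lay between -2.13 and -3.74 under ENPP1+ATP medium at 48 h, with a median of -2.52. The 11 sterol genes lay between -1.004 (Ebp) and -4.33 with a median of -2.23. The 5 regulators and carriers lay between -0.61 (Tmem97) and -2.30 with a median of -1.14. Of the 10 fatty acid genes 9 were called lower, and the median of all 10 was -1.59. Under AMP medium the medians in the same order were -2.56, -2.51, -1.16 and -1.55. The mevalonate and sterol enzymes thus had the lowest medians, and the regulators the one nearest to 0.

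Among the regulators, Insig1 was the lowest at 48 h. It had 444 and 463 CPM in vehicle, 93.0 and 91.8 CPM in ENPP1+ATP and 89.4 and 87.0 CPM in AMP medium, at -2.30 ± 0.0533 and -2.36 ± 0.0534. Srebf2 had 664 and 701 CPM in vehicle against 302 and 320 CPM and 315 and 297 CPM, at -1.13 ± 0.0490 and -1.16 ± 0.0490. Srebf1 had 314 and 312 CPM against 142 and 142 CPM and 156 and 162 CPM, at -1.14 ± 0.0438 and -0.98 ± 0.0435. The transcripts of both factors stayed measurable, at 142 CPM or more, in every treated library. Lpin1 had 63.2 and 65.9 CPM in vehicle and 92.2 and 93.9 CPM in ENPP1+ATP and 86.1 and 96.3 CPM in AMP medium, at 0.53 ± 0.0573 and 0.50 ± 0.0572.

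Other transcripts moved beside these genes. In ENPP1+ATP medium the summed fibroblast markers were 3364 to 3467 CPM at 24 h and 3500 to 3728 CPM at 48 h, and in AMP medium 2633 to 2848 CPM and 3715 to 3964 CPM, against 6731 to 7200 CPM in vehicle. All 9 markers were detected in every group. The 7 genes of dividing cells summed to 2894 to 3244 CPM at 24 h and 1894 to 1975 CPM at 48 h in these media, against 1287 to 1323 CPM in vehicle. The cardiomyocyte markers summed to 13.1 to 16.4 CPM, against 18.3 to 23.7 CPM in vehicle. The 8 smooth muscle or pericyte markers summed to 161 to 182 CPM at 24 h and 358 to 430 CPM at 48 h, against 116 to 133 CPM in vehicle. The 9 macrophage markers summed to 25.5 to 50.8 CPM at 24 h and 61.0 to 75.7 CPM at 48 h, against 8.45 to 9.40 CPM. The 9 endothelial markers lay near their vehicle level at 24 h, at 647 to 724 against 658 to 679 CPM, and at 829 to 863 against 539 to 553 CPM at 48 h. Mitochondrial reads were 2.46 to 3.87% at 24 h and 4.34 to 5.37% at 48 h in these media, against 2.14 to 2.32% in vehicle. The part of these shifts in the members' values was not tested.

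The change between vehicle and medium at 48 h minus that at 24 h is given, like the values it comes from, as a description of the members. Under ENPP1+ATP medium this difference was called lower for 31 members and higher for 1, with a median difference of -1.13, beside 14.9% lower and 15.1% higher of all genes. Under AMP medium it was called lower for 30 and higher for 1, with a median of -1.05, beside 14.4% lower and 17.3% higher. With unscaled library totals 4226 of all genes were lower and 1745 higher under ENPP1+ATP and 4120 and 1903 under AMP medium, where Lpin1 was no longer called. With DESeq2 they were 2499 and 2743, and 2462 and 3056. Tmem97 was called in neither, and Acaca not under AMP medium. The difference for Lss was -2.43 ± 0.0863 under ENPP1+ATP and -2.35 ± 0.0861 under AMP medium. Its CPM in ENPP1+ATP medium were 314 and 308 at 24 h and 56.0 and 53.9 at 48 h, while its vehicle libraries had 370 and 391 CPM and then 364 and 360 CPM. Lss was thus among the least changed members at 24 h and well below vehicle at 48 h. Idi1 showed the same order, with differences of -2.13 ± 0.121 and -1.94 ± 0.120. Scd1, by contrast, was already low at 24 h and its differences were only -0.37 ± 0.0760 and -0.25 ± 0.0759, the latter not called in 3 of 14 other settings. Lpin1 was higher by 0.58 ± 0.0814 and 0.31 ± 0.0807.

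**Figure D3:**
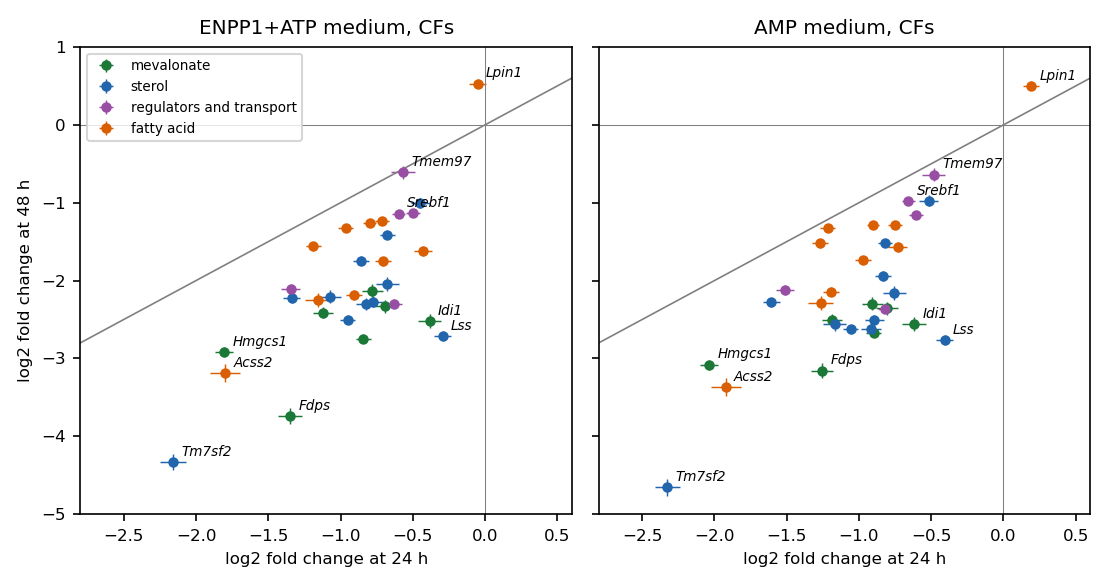
Log2 fold change of each member at 48 h (vertical axis) against that at 24 h (horizontal axis) for ENPP1+ATP and AMP medium, with a line where both are equal. Nearly all points lie below the line, with Lss and Idi1 far below it and Lpin1 above it.

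Vehicle CFs themselves differed little between the times. Hmgcs1, Pmvk, Fdft1, Tmem97 and Scd1 were called lower at 48 h and 0 members higher, beside 3.2% lower and 1.68% higher of all genes. Their log2 fold changes lay between -0.20 and -0.28. The count of 5 was 3 without 24 h vehicle replicate 1 and 0 without any one of the other 3 vehicle libraries. It was also 0 with library totals in place of TMM, where 643 of all genes were higher and 359 lower. The count was 10 without the filter, beside 735 lower and 399 higher of 30892 genes. With DESeq2 it was 9, beside 738 lower and 416 higher of 12325 genes. When only the groups compared were fitted it was 15, with 1 higher, beside 1420 lower and 1065 higher of 16165 genes.

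ATP MCndM gave a smaller change that was present at 24 h. There 31 members were called lower and 0 higher, with a median log2 fold change of -0.48, beside 6.32% lower and 4.77% higher of all genes. Tm7sf2 had 42.3 and 40.8 CPM, Acss2 116 and 103 CPM, Hmgcs1 488 and 492 CPM and Elovl6 116 and 110 CPM. These values lay between those of vehicle and of ENPP1+ATP medium, at -0.85 ± 0.0805, -0.78 ± 0.101, -0.66 ± 0.0600 and -0.65 ± 0.0830. Srebf1 was at -0.27 ± 0.0428, Srebf2 at -0.29 ± 0.0482 and Insig1 at -0.39 ± 0.0499. Lss and Tmem97 were not called, and Lpin1 with 43.2 and 41.6 CPM was lower here, at -0.46 ± 0.0586. The ATP libraries of all 33 members lay below both vehicle libraries, as did those of 27.6% of all genes. The fibroblast markers summed to 4948 to 5238 CPM in these libraries and the part of that shift was not tested.

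At 48 h ATP medium was close to vehicle. Acaca, Acly and Scd1 were called lower, at -0.28 ± 0.0515, -0.20 ± 0.0542 and -0.18 ± 0.0534, beside 2.48% of all genes. Mvd, Lss and Lpin1 were called higher, at 0.31 ± 0.0662, 0.22 ± 0.0587 and 0.19 ± 0.0574, beside 5.35%. The 198 and 224 CPM of Mvd in ATP medium compared with 163 and 178 CPM in vehicle. Both ATP libraries lay below both vehicle libraries for 9 members and above them for 6, beside 28.1% and 26.6% of all genes. These counts of 3 and 3 rest on single libraries. Without ATP replicate 2 they were 6 and 0, and without ATP replicate 1 the lower count was 1. Without vehicle replicate 1 they were 1 and 0, and without vehicle replicate 2 they were 1 and 1. Insig1, Srebf1 and Srebf2 were not called, at -0.06, -0.07 and -0.05.

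ENPP1 MCndM without ATP called 0 members and 0 genes (0%) in edgeR's test at either time. At an unadjusted p under 0.05 there were 249 genes at 24 h and 743 at 48 h, of which 0 and 1 were members, and DESeq2 also called 0. Without the filter on low counts edgeR called 26 genes lower at 24 h, and 129 higher and 51 lower at 48 h. Without 48 h ENPP1 replicate 2 it called 129 higher at 48 h, and 1 gene was called lower there with only the groups compared. In none of these settings was a member called. The members' log2 fold changes lay between -0.01 and 0.13 at 24 h and between -0.05 and 0.13 at 48 h. Hmgcs1 had 814 and 817 CPM in ENPP1 medium at 24 h, beside 726 and 826 CPM in vehicle. Its 691 and 686 CPM at 48 h stood beside 640 and 694 CPM.

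ENPP1+ATP and ATP medium were taken from NRVMs to which ATP had been added with or without ENPP1. These media were set against each other without any vehicle library. At 24 h 27 members were called lower in ENPP1+ATP medium and 1 higher, with a median of -0.42, beside 22.1% lower and 21.8% higher of all genes. Tm7sf2 was at -1.31 ± 0.0886, Hmgcs1 at -1.14 ± 0.0611, Acss2 at -1.03 ± 0.106 and Fdps at -0.81 ± 0.0818. The call of Ebp was lost in 5 of 10 other settings and that of Acat2 in 2 of 10. Acly, Fasn, Hsd17b7, Idi1 and Lss were not called, and Fasn had 1507 and 1345 CPM in ENPP1+ATP against 1385 and 1359 CPM in ATP medium. Lpin1 was higher at 0.41 ± 0.0595. At 48 h 32 members were lower and 1 higher, with a median of -2.11, beside 21.3% lower and 18.2% higher of all genes. Tm7sf2 was at -4.17 ± 0.109, Fdps at -3.83 ± 0.103, Acss2 at -2.96 ± 0.117 and Lss at -2.94 ± 0.0651. Insig1 was at -2.24 ± 0.0532, Srebf1 at -1.07 ± 0.0439 and Srebf2 at -1.08 ± 0.0490.

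In NRVMs most members were lower as well under ENPP1+ATP, AMP and ATP, with Scd1 the lowest in each. Under ENPP1+ATP 28 members were called lower and 2 higher, with a median log2 fold change of -0.52, beside 27.4% lower and 28.6% higher of all genes. Under AMP 20 were lower and 4 higher, with a median of -0.26, beside 28% lower and 29.2% higher. Under ATP 27 were lower and 4 higher, with a median of -0.34, beside 29.7% lower and 30.2% higher. The 3 comparisons share the 3 vehicle libraries. Under ENPP1 without ATP edgeR called 0 members and 0 genes (0%), with 693 genes and 2 members at an unadjusted p under 0.05 and 1 gene, no member, called by DESeq2. Without the filter edgeR called 1 gene higher and 13 lower, and with only the groups compared 5 lower, none of them a member.

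**Figure D4:**
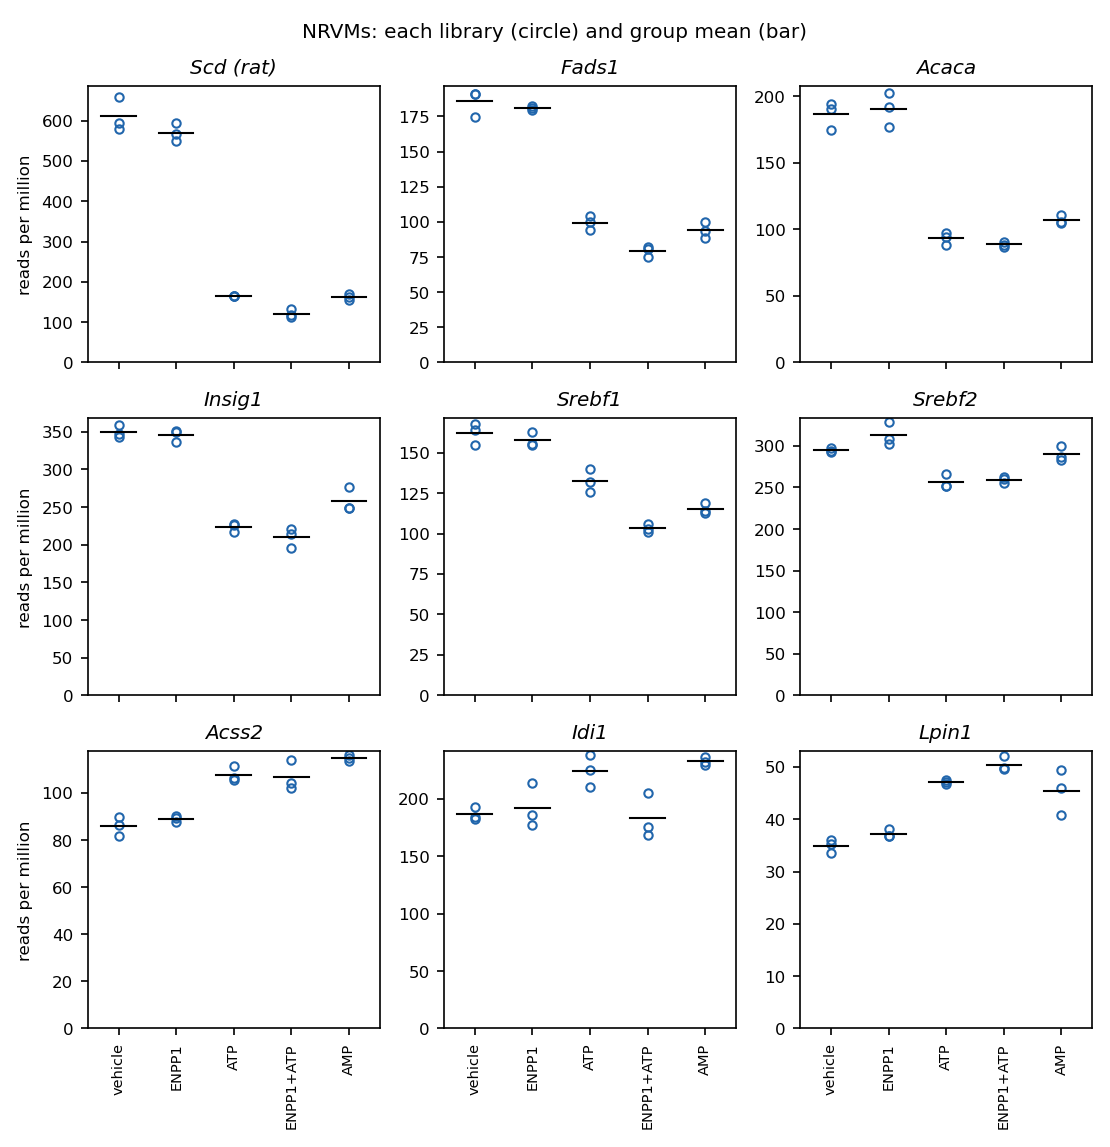
CPM of selected members in every NRVM library (circles) with the group mean (bar), by treatment, on linear axes from 0. Scd falls from 579 to 660 CPM under vehicle to between 113 and 170 CPM under ENPP1+ATP, AMP and ATP, while Acss2 and Lpin1 lie above their vehicle libraries in these treatments.

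Scd, the rat stearoyl-CoA desaturase that introduces the first double bond into saturated fatty acids, had the largest change. Its level was 579, 595 and 660 CPM under vehicle, 117, 113 and 132 CPM under ENPP1+ATP, 155, 170 and 163 CPM under AMP and 165 CPM in each ATP library. The log2 fold changes of Scd1, as the member is named here, were -2.35 ± 0.0526, -1.91 ± 0.0513 and -1.89 ± 0.0511 (n = 3 against 3). All 9 treated libraries lay far below the vehicle libraries. Fads1, a desaturase of polyunsaturated fatty acids, had 175, 191 and 191 CPM under vehicle and 80.5, 74.9 and 82.5 CPM under ENPP1+ATP. It was at -1.23 ± 0.0499, -0.98 ± 0.0492 and -0.90 ± 0.0488 under ENPP1+ATP, AMP and ATP. Its partner Fads2 was at -1.18 ± 0.0505, -0.81 ± 0.0493 and -0.75 ± 0.0489. Acaca, which makes malonyl-CoA, had 195, 174 and 191 CPM under vehicle and 88.5, 87.0 and 90.7 CPM under ENPP1+ATP, at -1.07 ± 0.0503, -0.80 ± 0.0495 and -1.001 ± 0.0498.

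Fdps was the most changed sterol-route gene of the myocytes. It had 833, 766 and 846 CPM under vehicle, 410, 391 and 420 CPM under ENPP1+ATP, 473, 510 and 486 CPM under AMP and 343, 346 and 368 CPM under ATP. Its log2 fold changes were -1.002 ± 0.0450, -0.73 ± 0.0446 and -1.21 ± 0.0452, so that ATP alone gave the lowest libraries. Hmgcs1 had 771, 718 and 752 CPM under vehicle and 492, 462 and 535 CPM under ENPP1+ATP, at -0.59 ± 0.0422. Tm7sf2, the most changed member of CFs, had 50.1, 49.7 and 51.1 CPM under vehicle and 40.9, 41.2 and 42.8 CPM under ENPP1+ATP, at -0.27 ± 0.0612. Under AMP and ATP it was not called, at 0.05 ± 0.0599 and -0.10 ± 0.0601.

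Of the regulators, Insig1 had 342, 348 and 359 CPM under vehicle and 214, 196 and 221 CPM under ENPP1+ATP, at -0.73 ± 0.0447, with -0.44 ± 0.0443 under AMP and -0.64 ± 0.0444 under ATP. Srebf1 had 154, 164 and 168 CPM under vehicle and 103, 101 and 106 CPM under ENPP1+ATP, at -0.65 ± 0.0462, with -0.49 ± 0.0459 and -0.29 ± 0.0453 under AMP and ATP. Srebf2 changed little, from 294, 298 and 292 CPM to 260, 262 and 255 CPM, at -0.19 ± 0.0406, and was not called under AMP at -0.02 ± 0.0405. Under ATP it was at -0.20 ± 0.0406.

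A few members were higher in treated myocytes. Acss2 had 86.4, 81.8 and 89.8 CPM under vehicle and 114, 102 and 104 CPM under ENPP1+ATP, at 0.31 ± 0.0491, with 0.42 ± 0.0489 under AMP and 0.33 ± 0.0489 under ATP. Lpin1 had 35.2, 36.1 and 33.5 CPM under vehicle and 49.6, 52.1 and 49.8 CPM under ENPP1+ATP, at 0.53 ± 0.0645, with 0.38 ± 0.0653 and 0.43 ± 0.0646. The groups of both genes did not overlap. Idi1 was higher under AMP and ATP, at 0.32 ± 0.0743 and 0.27 ± 0.0742, and was not called under ENPP1+ATP. Nsdhl was called higher under AMP only, at 0.11 ± 0.0482, and Ebp under ATP only, at 0.23 ± 0.0841. The call of Nsdhl was lost in 10 of 12 other settings, DESeq2 and the replicate block among them, and that of Ebp in 3 of 12. AMP was not tested against the other treatments. Between ENPP1+ATP and ATP, Ebp was called lower with ENPP1, a call lost in 2 of 12 other settings. Elovl6 was counted with 2 to 18 reads in each NRVM library, 0.141 to 1.15 CPM, so its changes are poorly measured.

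ENPP1+ATP and ATP differed in myocytes for 16 members that were lower with ENPP1 and 2 that were higher, with a median of -0.12, beside 13.5% lower and 14.1% higher of all genes. The lower count was 11 to 14 when a library was left out. The call of Tmem97 was lost in 10 of 12 other settings and that of Tm7sf2 in 6 of 12. Fasn was the lowest, at -0.61 ± 0.0412, with 746, 737 and 808 CPM under ENPP1+ATP and 1145, 1199 and 1149 CPM under ATP. The groups lay well apart. Acly was at -0.46 ± 0.0388, Scd1 at -0.45 ± 0.0528 and Fads2 at -0.43 ± 0.0516. The 2 higher members were Fdps at 0.21 ± 0.0451 and Fdft1 at 0.16 ± 0.0415. Srebf1 was at -0.36 ± 0.0464, while Insig1 at -0.09 and Srebf2 at 0.01 were not called.

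The makeup of the NRVM libraries moved too. The 8 fibroblast markers summed to 8280 to 8740 CPM under ENPP1+ATP, 11524 to 12299 CPM under AMP and 10374 to 11712 CPM under ATP, against 24753 to 26139 CPM under vehicle. The 9 cardiomyocyte markers summed to 34842 to 36672 CPM, 40535 to 43354 CPM and 22198 to 24093 CPM, against 41660 to 43852 CPM. No marker of these 2 lists was at 0 in any of these groups. The 8 smooth muscle or pericyte markers summed to 1875 to 2050 CPM under the 3 treatments, against 2396 to 2533 CPM, and the 8 macrophage markers to 8.94 to 16.7 CPM, against 4.56 to 5.44 CPM. Mitochondrial reads were 10.5 to 11.1% under ENPP1+ATP and AMP and 8.77 to 9.62% under ATP, against 8.14 to 8.35% under vehicle. The part of these shifts in the members' values was not tested.

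Other genes of the pathway were counted from 3 lists that were also drawn up with earlier results known. In CFs under ENPP1+ATP medium at 48 h, 7 of 11 other sterol genes were called lower and 2 higher, 5 of 11 genes of sterol export and storage lower and 2 higher, and 10 of 18 other fatty acid and lipid genes lower and 2 higher, beside 24.4% lower and 20.8% higher of all genes. At 24 h the lower counts were 8, 6 and 9 and the higher counts 1, 2 and 5, beside 25.3% and 23.9%. Acsl3, which activates long-chain fatty acids, had 193 and 192 CPM in vehicle and 66.8 and 71.5 CPM in ENPP1+ATP medium at 24 h, at -1.48 ± 0.0687. At 48 h it was at -1.88 ± 0.0702, and under AMP medium at -1.60 ± 0.0686 and -1.93 ± 0.0702. The cholesterol exporter Abca1 was at -1.57 ± 0.113 under AMP medium at 24 h. In NRVMs under ENPP1+ATP the lower counts were 6 of 11, 4 of 11 and 9 of 17 and the higher counts 1, 2 and 4, beside 27.4% lower and 28.6% higher of all genes. Nr1h3, which encodes the sterol-sensing receptor LXR alpha, was higher in NRVMs at 1.46 ± 0.164, 1.28 ± 0.166 and 1.73 ± 0.160 under ENPP1+ATP, AMP and ATP. Its level was low, with 4.19, 3.58 and 2.51 CPM under vehicle and 10.1, 8.69 and 9.69 CPM under ENPP1+ATP.

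The single-cell libraries held 7460 barcodes from ENPP1CKO hearts and 5347 from control hearts, of which 7255 and 5240 were kept, and 68 barcodes occurred in both. Cell classes were named from markers and are therefore called fibroblast-like, macrophage-like and so on. With 1 library per genotype nothing can be tested, and the intervals given are exact 95% intervals for counting error only. The targeted gene Enpp1 had 28.5 CPM (25.9 to 31.2) in ENPP1CKO and 126 CPM (119 to 134) in control cells of the fibroblast-like class, or -2.15 (-2.31 to -1.995) as the log2 ratio of ENPP1CKO to control. In macrophage-like cells it had 10.7 and 13.6 CPM, a log2 ratio of -0.34 (-0.80 to 0.12). CPM here relate the gene's molecules to all molecules of the class, on the same scale as above. Which exons are deleted is not stated in the sources used here, so these tags may lie outside the deleted part.

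In fibroblast-like cells, 3666 from ENPP1CKO and 1785 from control hearts, the 33 members summed to 499.7 and 500.2 CPM, a log2 ratio of -0.00 (-0.05 to 0.05). Scd2 was the most abundant with 51.5 and 61.2 CPM, followed by Ebp with 49.8 and 56.8 CPM, Tmem97 with 38.8 and 38.0 CPM, Hmgcs1 with 34.4 and 22.4 CPM and Fdps with 24.0 and 31.2 CPM. Of the 31 members with at least 50 counts, 1 was over 1.5-fold lower and 1 over 1.5-fold higher in ENPP1CKO cells, beside 5.2% and 5.07% of 11194 genes. These were Mvd at -0.63 (-1.11 to -0.15) and Hmgcs1 at 0.62 (0.39 to 0.85). Each of them went the other way in 1 of the 4 clusters, Mvd with only 4 and 1 counts there. Next to them stood Sqle at -0.55 (-1.10 to 0.01) and Srebf1 at -0.51 (-0.92 to -0.10) on the lower side, and Lpin1 at 0.50 (0.07 to 0.95) and Msmo1 at 0.41 (0.10 to 0.74) on the higher side. With cells thinned to 1000 counts, Msmo1 turned to -0.19. Tm7sf2 with 13 and 8 counts and Lss with 14 and 9 counts were too rare to compare. The cells' median depth was 4026 molecules in ENPP1CKO and 5062 in control cells.

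The summed level hides 1 group of cells. The cluster led by Thbs4 and Cilp held 1490 ENPP1CKO and 228 control cells, and the members' sum was 564 CPM in ENPP1CKO against 895 CPM in control hearts, with a log2 ratio of -0.67 (-0.77 to -0.56). The other fibroblast-like clusters had log2 ratios of -0.04, 0.09 and 0.05. Since this cluster came mostly from 1 library, it may be a feature of that library and not a cell type. Fdps stood at 31.3 CPM there in ENPP1CKO hearts and at 88.6 CPM in control hearts. Hmgcs1 had 42.3 and 59.99 CPM there and Msmo1 22.7 and 39.4 CPM, both lower in ENPP1CKO cells, while in the other 3 fibroblast-like clusters both were higher. Lpin1 was higher there in ENPP1CKO cells, with 11.2 and 4.48 CPM from 76 and 5 counts. In the other 3 clusters Lpin1 had 7.18 and 6.80, 8.64 and 9.05, and 10.5 and 0 CPM, the last from 6 and 0 counts.

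Macrophage-like cells were summed over 3 clusters, led by Il1b and Tnip3, by Gpnmb and Ccl8 and by Chil3 and Ly6c2. Another macrophage-like cluster was left out after its values were seen, and the class values with it are not given. The 3 clusters held 1981 cells from ENPP1CKO and 1700 from control hearts, which is not the balance of all macrophage-like cells. Within them the members had 363 and 364 CPM, a log2 ratio of -0.00 (-0.08 to 0.08), beside a median of -0.05 over 8780 genes. Ebp was the most abundant with 75.7 and 78.5 CPM, then Insig1 with 31.0 and 29.6 CPM, Pmvk with 23.5 and 22.7 CPM, Acly with 19.2 and 25.4 CPM and Msmo1 with 24.5 and 19.5 CPM. Of 24 members with at least 50 counts, 3 were over 1.5-fold lower and 1 higher, beside 5.13% and 2.71% of genes. Mvd was at -0.84 (-1.57 to -0.13), Srebf1 at -0.78 (-1.63 to 0.03) and Scd2 at -0.68 (-1.57 to 0.17). With cells thinned to 1000 counts, Mvd turned to 0.37. On the higher side stood Acat2 at 1.05 (0.36 to 1.77), Lpin1 at 0.41 (-0.12 to 0.96) and Fads1 at 0.34 (-0.09 to 0.78). Of these 6 intervals, those of Srebf1, Scd2, Lpin1 and Fads1 included 0. Scd1 was rare here, with 7 and 5 counts, and Fads2 was not detected at this depth. The cells' median depth was 3277 molecules in ENPP1CKO and 3740 in control cells.

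**Figure D5:**
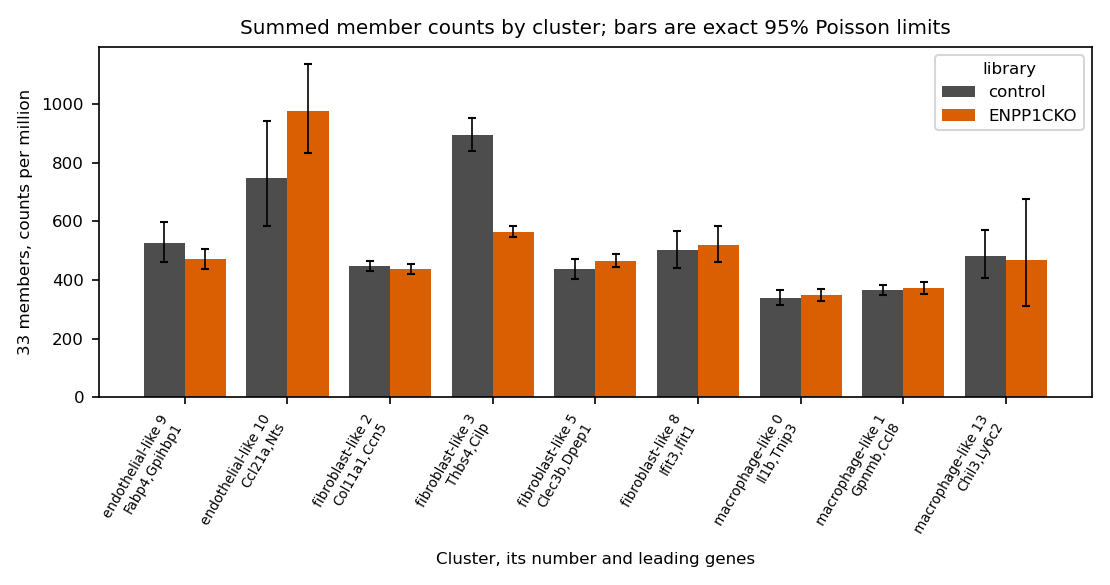
Summed CPM of the 33 members in clusters of the fibroblast-, macrophage- and endothelial-like classes, for the ENPP1CKO and control libraries (coloured bars), with exact 95% counting intervals (thin lines). The cluster led by Thbs4 and Cilp shows the members at 564 CPM in ENPP1CKO against 895 CPM in control hearts.

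Within the macrophage-like clusters reported here, which are not all of that class, the members' sums were close in both libraries. The cluster led by Il1b and Tnip3 had 349 and 340 CPM in ENPP1CKO and control cells, a log2 ratio of 0.04 (-0.10 to 0.18). The cluster led by Gpnmb and Ccl8 had 373 and 367 CPM, at 0.02 (-0.08 to 0.13), and the small cluster led by Chil3 and Ly6c2, 26 and 97 cells, had 467 and 482 CPM, at -0.05 (-0.69 to 0.55). Endothelial-like cells, 932 and 192, had 521 and 564 CPM of the members, a log2 ratio of -0.11 (-0.30 to 0.07). Of their 2 clusters, that led by Fabp4 and Gpihbp1, 867 and 162 cells, was at -0.16 (-0.37 to 0.06), and that led by Ccl21a and Nts, 65 and 30 cells, at 0.38 (-0.02 to 0.80), and both intervals included 0. The median depth of the class was 1472 and 2602 molecules and its 9 endothelial markers summed to 25621 and 13221 CPM, and the part of these differences was not tested.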

How the data were processed

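Expression was measured by RNA sequencing in 20 CF libraries, 15 NRVM libraries and 2 single-cell libraries. The deposited CF and NRVM tables hold whole-number read counts per gene, and the deposited single-cell tables counts of molecules per gene and barcode. None had been normalized. The submitters' processing notes name STAR 2.5.3a, Cell Ranger, mm10 and rn6. The counter, its strand setting and its treatment of reads that map to several genes are not given in the sources used here. Genes that share sequence can lose or gain reads in such counts.

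Groups came from the sample labels, and 0 columns were left out. The members and lists were chosen with earlier results of these data known. CF and NRVM counts were fitted separately in R 4.3.3 with edgeR 4.0.16 (filterByExpr, TMM, robust quasi-likelihood test, 1 mean per group over all libraries), and p-values were adjusted by Benjamini-Hochberg over all genes tested with a threshold of 0.05. The script was tested on simulated data. Replicate numbers were not taken as pairs, since deviations of same-numbered libraries correlated between -0.11 and 0.28 in CFs and between -0.17 and 0.12 in NRVMs. Libraries of a group were checked not to be duplicates.

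Single-cell counts were clustered with scanpy 1.11.5 in Python 3.11.15 after barcodes under 200 genes or over 20% mitochondrial counts were dropped and after removing 151 ENPP1CKO and 69 control doublets predicted by Scrublet. Of 19 clusters 3 stayed unnamed, those led by Clu and Serpinb2, by cardiomyocyte genes and by genes of dividing cells. Counts were summed per library and class. Of the macrophage-like clusters 1 is not reported here and was left out of that class after its values were seen, so macrophage-like values do not cover all such cells. Their intervals cover counting error only.

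Every member is accounted for. Values per library are given for up to 4 members with the largest called change in each direction and for Srebf1, Srebf2 and Insig1, in cell classes for the 3 highest and 3 lowest ratios among members with at least 50 counts and the 5 most abundant members, and for only some of the other pathway genes with large changes. Alternatives were DESeq2 1.42.0, other scalings, no filter, only the groups compared, a replicate block, each library left out, and for cells other filters, finer clusters and thinning.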

Additional observations from a re-analysis of the deposited data

Results flagged for a closer look

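Some members moved in opposite directions in CFs and NRVMs at 24 h, with every library of one cell type below its vehicle libraries and every library of the other above them. The difference between the cell types was not tested, since the tables come from different species. Acss2 had log2 fold changes of -1.80 in CFs and 0.31 in NRVMs under ENPP1+ATP, of -1.92 and 0.42 under AMP, and of -0.78 and 0.33 under ATP. Idi1 had -0.62 and 0.32 under AMP and -0.38 and 0.27 under ATP. Ebp had -0.52 and 0.18 under AMP, where the NRVM value was not called, and -0.28 and 0.23 under ATP. Nsdhl had -1.17 and 0.11 under AMP, and Lpin1 had -0.46 and 0.43 under ATP.

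The change in CFs at 48 h minus that at 24 h is listed because edgeR called it for most members, which were chosen with fold changes of these libraries known, so it is a description and no independent test. It was called lower for 31 members and higher for 1 under ENPP1+ATP medium, and lower for 30 and higher for 1 under AMP medium. Of all genes tested, 14.9% were called lower and 15.1% higher under ENPP1+ATP, and 14.4% and 17.3% under AMP medium. The largest log2 differences under ENPP1+ATP were those of Lss at -2.43, Fdps at -2.39, Tm7sf2 at -2.17 and Idi1 at -2.13, with Lpin1 at 0.58. Under AMP they were those of Lss at -2.35, Tm7sf2 at -2.33, Idi1 at -1.94 and Fdps at -1.90, with Lpin1 at 0.31. Each bulk group held 2 or 3 libraries, too few for a test of single libraries within a group.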

How the results depend on the processing

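Of 396 counts of members called under another setting, 377 were within 1.5 times the reported count. Of 6530 single member values, 6370 kept their call and its direction or stayed uncalled, 115 lost the call, 44 gained it and 1 turned. Directions were not compared for members uncalled in both settings. Vehicle CFs at 48 h against 24 h, whose counts of all genes in fits with no library left out are given above, moved the most. Their 5 lower members became 0 with library totals in place of TMM, 10 without the filter, 9 with DESeq2 and 15 with only the groups compared, which also gave 1 higher, and 0 to 3 when a library was left out. Without the filter the 1 member higher in 24 h AMP medium became 0, and with library totals the 1 higher in the AMP difference between times became 0. Leaving out a library gave 0 to 1 higher in 24 h AMP medium, and 1 to 6 lower and 0 to 2 higher in 48 h ATP medium. Fasn under ATP in NRVMs went from -0.10 to 0.0096 with library totals. The cause was not tested.

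Library totals moved the share of higher among called genes from 47.9% to 37.4% (48 h AMP), 68.3% to 52.3% (48 h ATP), 34.5% to 64.2% (vehicle over time), 50.3% to 29.2% and 54.6% to 31.6% (differences between times, ENPP1+ATP and AMP), 50.4% to 63.9% (NRVM ATP) and 51.2% to 35.6% (NRVM ENPP1+ATP against ATP). The median of all genes shifted by -0.13, -0.14 and 0.11 for the differences between times and NRVM ATP. A replicate block changed 3 counts, vehicle over time from 5 to 6 lower, NRVM AMP from 4 to 3 higher and NRVM ENPP1+ATP against ATP from 16 to 15 lower, and same-numbered libraries gave no sign of pairing.

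In fibroblast-like cells the summed log2 ratio went from -0.00 to -0.14 when cells were thinned to 1000 counts and to -0.057 with the cluster led by Clu and Serpinb2. Thinned, Msmo1 went from 0.41 to -0.19, Ebp from -0.19 to 0.011 and Scd1 from 0.24 to -0.030. In macrophage-like cells thinning took Mvd from -0.84 to 0.37. Of 466 values of cell classes over all settings, 25 moved and 4 turned. Thinning moved 10 fibroblast-like values beside the 3 that turned, and 7 macrophage-like values beside the 1 that turned. Leaving out the cluster led by Thbs4 and Cilp moved 4 fibroblast-like values. The settings that move clusters in or out were chosen after seeing the data. The causes were not tested. Counts of a few molecules limit rare members in cells, and 2 libraries limit each CF group.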
